A study of Mus musculus with 4 samples.

Results

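The genes described here encode the type 2 cytokines and growth factors of group 2 innate lymphoid cells (ILC2s): *Il13*, *Il5*, *Il4*, *Csf2* and *Areg*. They were chosen by name, and all 5 were found in both marker tables that the study made from its single cells, among 3488 genes in all. One table, called the cell type table here, gave genes higher in each of 21 types of sorted cell than in all other cells (1679 genes). The other, called the ILC2 subcluster table, did the same for 10 subclusters of the ILC2s, numbered from 0 (2629 genes).

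The cells came from wild type BALB/c mice, 8 weeks old by the study's methods, given intraperitoneal injections over 5 days of either PBS or 0.5 µg of rIL-33, a recombinant form of the alarmin that activates ILC2s. Liver and lung were taken after each treatment, which gave 4 groups of 1 library (PBS liver, rIL-33 liver, PBS lung and rIL-33 lung), each from the pooled tissue of several mice. Cells were sorted as negative for the lineage markers CD3e, Ly6G, Ly6c, CD11b, CD45R, TER119 and TCRb and positive for CD127, Thy1 and ST2, and were profiled by droplet sequencing of transcript 3′ ends. Both tables pooled the 4 libraries and carried no value per library, so liver was not compared with lung, nor rIL-33 with PBS, and no replicate stood behind any value.

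ILC2s are tissue lymphocytes without antigen receptors that answer alarmins such as IL-33 by secreting cytokines within hours. IL-13 acts on epithelial cells, smooth muscle, macrophages and hepatocytes, IL-5 drives the production and survival of eosinophils, and IL-4 promotes type 2 helper T cells and antibody class switching to IgE. *Csf2* encodes GM-CSF, a growth factor of granulocytes, macrophages and dendritic cells, and *Areg* encodes amphiregulin, an EGF family ligand of the EGF receptor that is known for its role in tissue repair. GATA3 is the transcription factor on which ILC2s depend, and basophils are another innate source of IL-4 and IL-13.

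The values are shares of cells. A listing is 1 gene given for 1 cluster, where the study's comparison found its average higher than in all other cells. It carries 2 shares of cells in which the gene's value was above 0, one for the cluster and one for all other cells of the table. The share of a listed gene can still be lower in the cluster, as in 1102 of the 3745 listings of the ILC2 subcluster table. The higher of these shares was never below 25.0% in the ILC2 subcluster table or below 25.2% in the cell type table, so a gene that few cells have could not be listed, and a missing listing does not mean that a gene was unchanged. The share over all cells, the size of each cluster and the pooled share in the clusters that do not list a gene were solved from these pairs, with a standard error (SE) from rounding and from the fit of the sizes. The tables gave neither the number of cells in a cluster nor the depth per cell, so no interval for counting error was computed, and no neighbours in an order of shares could be shown to differ. A share depends on how well a transcript is captured as well as on its level, so the order of shares between genes is not an order of their levels.

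*Il4*, *Il13* and *Il5* lie together on chromosome 11 (build GRCm38.p6, RefSeq). *Il4* spans 53612460 to 53618665 on the minus strand, *Il13* follows after 12.7 kb at 53631323 to 53634702 on the minus strand, and *Il5* lies 86.1 kb beyond *Il13* at 53720794 to 53725103 on the plus strand. *Rad50*, a DNA repair gene, lies between *Il13* and *Il5*. *Csf2* is on the same chromosome, 522.2 kb beyond *Il5*, at 54247270 to 54249899 on the minus strand, and *Areg* is on chromosome 5 at 91139599 to 91148432 on the plus strand. The nearest genes of *Csf2* and *Areg* that encode related factors, *Il3* (15.2 kb away) and *Ereg* (46.0 kb away), were in neither table.

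The 250 bases before the start of the genes are printed because 3 of them share a chromosomal neighbourhood but differed in which subclusters listed them. The sequences are from RefSeq, in mm10 (GRCm38.p6), read 5′ to 3′ on the strand of the gene. Capitals mark matches to a GATA motif or a cAMP response element. The windows are chr11:53634703-53634952 for *Il13*, chr11:53720544-53720793 for *Il5*, chr11:53618666-53618915 for *Il4*, chr11:54249900-54250149 for *Csf2* and chr5:91139349-91139598 for *Areg*.
Il13: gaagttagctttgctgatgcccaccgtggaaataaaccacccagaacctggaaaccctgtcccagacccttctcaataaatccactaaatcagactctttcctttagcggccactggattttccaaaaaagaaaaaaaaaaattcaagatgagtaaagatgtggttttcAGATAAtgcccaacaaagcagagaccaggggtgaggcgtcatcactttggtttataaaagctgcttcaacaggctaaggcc
Il5: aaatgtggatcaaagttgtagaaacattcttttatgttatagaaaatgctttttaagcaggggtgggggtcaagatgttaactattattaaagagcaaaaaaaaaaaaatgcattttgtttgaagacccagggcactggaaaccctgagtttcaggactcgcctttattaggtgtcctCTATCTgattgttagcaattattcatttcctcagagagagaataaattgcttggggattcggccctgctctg
Il4: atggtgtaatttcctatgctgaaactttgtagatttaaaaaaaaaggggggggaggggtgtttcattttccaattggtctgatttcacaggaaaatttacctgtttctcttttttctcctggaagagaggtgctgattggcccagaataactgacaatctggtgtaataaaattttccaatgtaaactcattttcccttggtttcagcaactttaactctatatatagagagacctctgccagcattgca
Csf2: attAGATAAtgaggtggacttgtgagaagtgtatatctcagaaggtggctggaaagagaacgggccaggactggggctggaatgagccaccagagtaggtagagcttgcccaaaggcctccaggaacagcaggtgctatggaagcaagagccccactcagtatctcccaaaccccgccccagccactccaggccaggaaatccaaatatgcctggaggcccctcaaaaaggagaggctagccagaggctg
Areg: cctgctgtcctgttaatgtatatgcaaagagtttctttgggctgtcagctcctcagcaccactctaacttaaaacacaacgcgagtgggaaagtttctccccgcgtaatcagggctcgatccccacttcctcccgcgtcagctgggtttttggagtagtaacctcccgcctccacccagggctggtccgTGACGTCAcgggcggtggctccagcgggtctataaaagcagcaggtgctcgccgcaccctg

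On both strands, the GATA motif was searched as AGATAA or AGATAG, and also as TGATAA or TGATAG. *Il13* held 1 match, whose first base lay 81 bases before the gene start, *Il5* held 1 on the opposite strand at 72 bases, and *Csf2* held 1 at 247 bases, while the windows of *Il4* and *Areg* held none of these letters. Such a match occurred in 27.1% of 27024 promoter windows of this length. *Areg* alone among the 5 held the cAMP response element TGACGTCA, 61 bases before its start, which 1.60% of windows held. The AP-1 motif TGANTCA, present in 6.85% of windows, was in none of the 5 as an exact string. A site with other letters would be missed by such a search. With a motif database, the study found a motif of the AP-1 subunit JunB shortly before the *Il13* start. It also reported JunB binding there. The core of the NFAT motif, GGAAA, is common (55.6% of windows) and was found 5 times before *Il4*, 4 times before *Il13*, 2 times each before *Il5* and *Csf2*, and 1 time before *Areg*. TATAAA, held by 13% of windows, stood 29 bases before *Il13* and 31 bases before *Areg*. A match in these letters is a description and not a binding site.

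Among ILC2s, *Il13* was listed for more subclusters than the other 4 genes, the small subcluster 7 listed *Il13*, *Il5*, *Il4* and *Areg*, and subcluster 3 listed *Csf2* and *Areg*. Subcluster 7 listed 4 of the 5 genes, all but *Csf2*, where 10.3% of the table's genes were listed. Subcluster 3 listed 2 (*Csf2* and *Areg*; background 9.01%) and subcluster 8 listed 2 (*Il13* and *Areg*; 9.62%). Subclusters 1, 2 and 4 each listed *Il13* alone (13.8%, 4.98% and 30.5%), and subcluster 9 listed *Il5* alone (7.57%). Subclusters 0, 5 and 6, which held 27.3%, 3.87% and 3.72% of the ILC2s, listed none. Every gene of a table is listed for at least 1 cluster by construction, and the clusters were made from the same cells, so these counts describe the genes and test nothing.

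**Figure D1:**
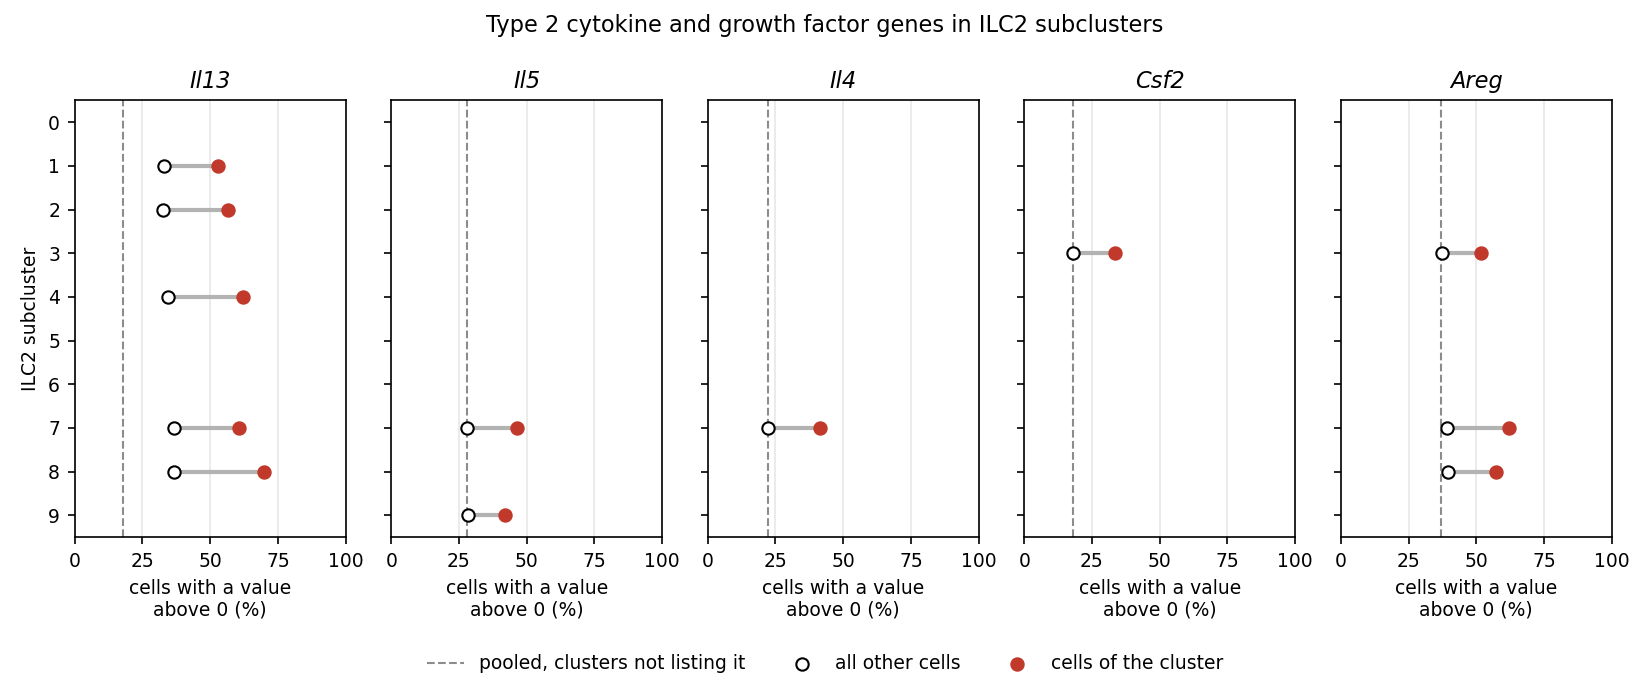
Share of cells with a value above 0 (x axis, %) for each of the 5 genes in each ILC2 subcluster that listed it (y axis). Red points are cells of the subcluster, open points all other ILC2s, and the dashed line is the solved pooled share in the subclusters that did not list the gene. *Il13* has 5 pairs of points and the widest gap to its dashed line, and 4 of the 5 genes have a pair in subcluster 7.

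*Il13* was listed for subclusters 1, 2, 4, 7 and 8. Among these 5, its share was highest in subcluster 8, where 69.7% of the cells had it against 36.8% of all other ILC2s. In subcluster 4 the share was 62.1% against 34.4%. These subclusters were of unequal size, 0.668% and 9.23% of the ILC2s. In subcluster 7 (1.42% of ILC2s) *Il13* was found in 60.5% of cells against 36.6%. The remaining pair, subclusters 2 and 1, were the large ones, with 18.3% and 20.1% of the ILC2s. There the shares were 56.5% against 32.6% and 52.8% against 33.0%. So the 5 shares covered a range from 52.8% to 69.7%, and the lowest of them lay above the share in all other ILC2s of every listing.

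Over all ILC2s, *Il13* was found in 37.0% ± 0.0122 (SE), and the 5 listings gave estimates from 36.9% to 37.0%. The subclusters that listed it had it in 56.3% ± 0.0175 of their cells together, and the 5 that did not (0, 3, 5, 6 and 9) in 17.8% ± 0.0516, a difference of 38.5 percentage points. The cells with *Il13* were therefore concentrated but not exclusive: 75.7% ± 0.0961 of them lay in the listing subclusters, which held 49.7% of the ILC2s, and 24.3% lay elsewhere. Most lay in subclusters 1 and 2, with 28.6% and 28.0% of all *Il13* cells, while subcluster 8, the highest in share among those listing it, held 1.26%. For subcluster 0, the largest, the share of *Il13* could be at most 32.8%, which it would reach only if the other subclusters without a listing held no such cell.

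Few genes were listed as widely. Of the 2629 genes in the ILC2 subcluster table, 20 (0.761%) were listed for at least 5 subclusters and 1861 for exactly 1. Within the lists themselves *Il13* held different places. By difference in share it was 6th of 131 genes in subcluster 2 and 9th of 253 in subcluster 8, well above the list medians of 16.1 and 18.9 percentage points. It was 88th of 363 in subcluster 1 and 127th of 270 in subcluster 7. In subcluster 4, where *Il13* differed by 27.7 percentage points, the median of all 802 listed genes was higher still at 34.1, and *Il13* was 560th.

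**Figure D2:**
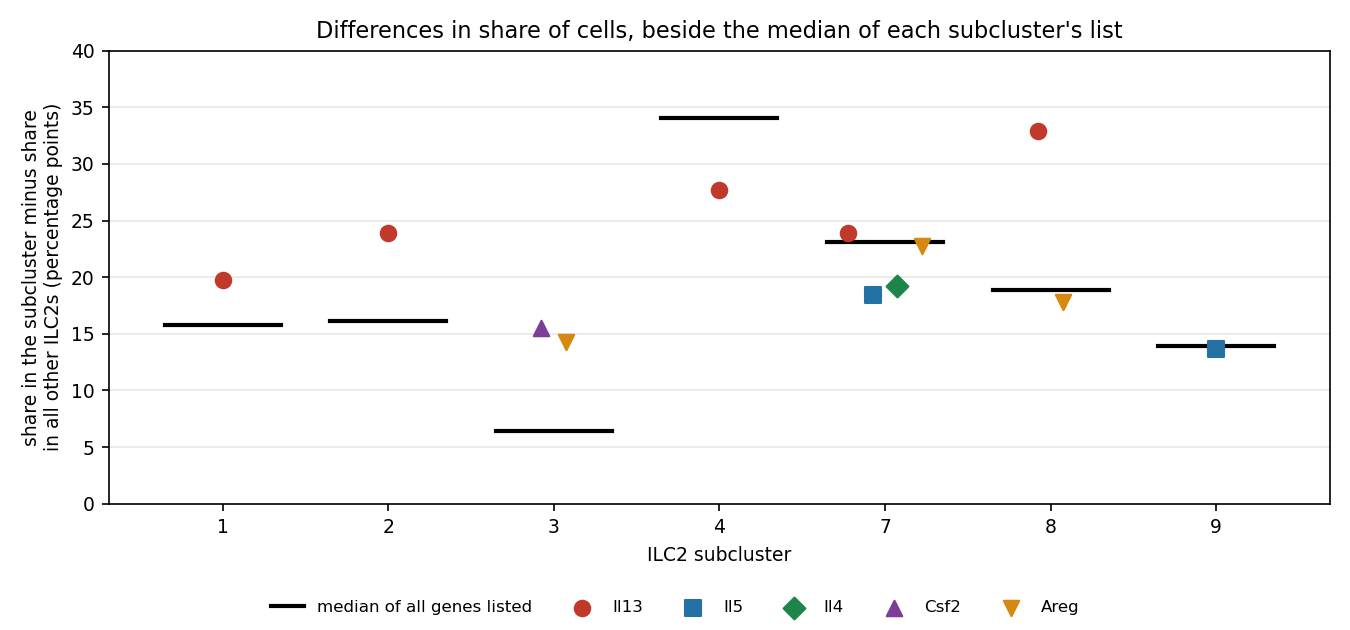
Difference in share between the cells of a subcluster and all other ILC2s (y axis, percentage points) for each listing of the 5 genes, by subcluster (x axis). Symbols are the genes and black bars the median of all genes listed for that subcluster. *Il13* lies above the bar in subclusters 1, 2, 7 and 8 and below it in subcluster 4, and *Csf2* and *Areg* lie above the bar of 6.40 in subcluster 3.

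Most cells with *Il5* lay outside the subclusters that listed it. Its share over all ILC2s was 28.4% ± 0.0203. It was listed for subcluster 7, with 46.5% against 28.1% of all other ILC2s, and for subcluster 9, with 42.0% against 28.3%. Both subclusters were small, so they held 3.23% of the *Il5* cells between them, and 96.8% lay in the 8 subclusters without a listing, where the pooled share was 28.0% ± 0.0208. How these cells were spread over the 8 was not given by the tables. Subcluster 9 held 0.611% of the ILC2s, and its *Il5* difference of 13.7 percentage points was close to the median of its list, 13.9. In subcluster 7 the difference for *Il5* was 18.4 percentage points, below the list median of 23.1. Subclusters 1, 2, 4 and 8 listed *Il13* without *Il5*, and subcluster 9 listed *Il5* without *Il13*. Whether the 2 genes differ there was not tested.

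*Il4* was listed for subcluster 7 alone, where 41.5% of the cells had it against 22.3% of all other ILC2s. Its share over all ILC2s was 22.6% ± 0.0286, below the 25.0% that the higher share of every listing reached. Subcluster 7 held 2.61% of the *Il4* cells, 1.84 times its share of the ILC2s. That ratio was 1.64 for *Il13*, 1.64 for *Il5* and 1.57 for *Areg* in the same subcluster. Subcluster 7 was the only one of the 10 that listed all 3 neighbouring cytokine genes of chromosome 11.

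*Csf2* was listed for subcluster 3 alone, with 33.4% of the cells against 17.9% of all other ILC2s. Over all ILC2s it was found in 20.2% ± 0.0254, like *Il4* below the 25.0% that the higher share of every listing reached. Subcluster 3 is large, with 14.9% of the ILC2s, and held 24.6% of the *Csf2* cells. The difference of 15.5 percentage points was 32nd of 237 genes listed there, where the median was 6.40.

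*Areg* was listed for subclusters 3, 7 and 8. Its share was 62.0% against 39.2% in subcluster 7 and 57.3% against 39.5% in subcluster 8. In subcluster 3 it was 51.7% against 37.4%. All 3 shares lay above the 39.6% ± 0.0160 of all ILC2s, and subcluster 7 was the highest. The 7 subclusters without a listing had *Areg* in 36.8% ± 0.0206 of their cells, not far below that share, and they held 77.3% of all *Areg* cells. Subcluster 3 alone held 19.5% of all *Areg* cells and 14.9% of the ILC2s. Whereas *Il13* and *Areg* were listed together for subcluster 7 and subcluster 8, subcluster 3 listed *Areg* without *Il13*. At least 3 subclusters were listed for 9.40% of the table's genes.

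**Figure D3:**
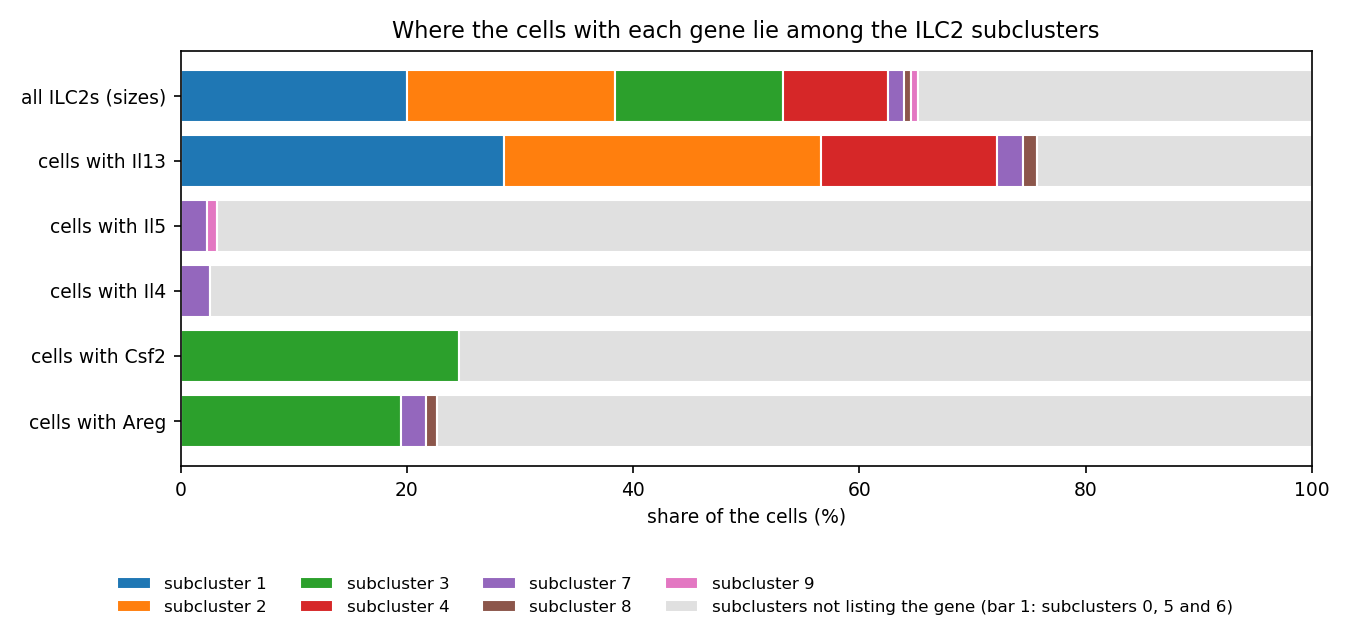
Share of all ILC2s (top bar) and of the ILC2s with each gene (other bars) that lay in each subcluster listing it (x axis, %; colours are subclusters, grey the subclusters without a listing). The coloured part reaches 75.7% for *Il13*, 24.6% for *Csf2*, 22.7% for *Areg*, 3.23% for *Il5* and 2.61% for *Il4*.

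Whether cells with one gene also had another could only be bounded from the shares, taking each value above 0 as it stands, without allowance for free RNA in droplets. In subcluster 8, *Il13* (69.7%) and *Areg* (57.3%) were both above 0 in at least 27.0% of the cells, and in subcluster 7 in at least 22.5%. In subcluster 7 at least 8.50% of the cells had *Areg* with *Il5*, at least 7% *Il13* with *Il5*, at least 3.50% *Areg* with *Il4* and at least 2% *Il13* with *Il4*. *Il4* and *Il5* there, and *Areg* and *Csf2* in subcluster 3, need not have been above 0 in the same cell, and the latter pair were so in at most 33.4%.

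The subclusters that list these genes also differed in markers of other cell states, whose part in the results was not tested. Subcluster 4 listed 4 of 4 proliferation genes, among them *Stmn1* (77.2% against 9.80%) and *Top2a* (71.5% against 26.2%). *Top2a* was also listed for subclusters 8 (49.4% against 30.2%) and 6 (49.0% against 29.6%). Subcluster 7 listed the γδ T cell receptor genes *Tcrg-C4* (69.5% against 52.6%) and *Tcrg-C1* (42.0% against 25.8%). *Tcrg-C4* was also listed for subclusters 8 (77.5% against 52.7%) and 2 (63.3% against 50.5%). Subcluster 6, which listed none of the 5 genes, listed both *Tcrg-C4* (64.7% against 52.4%) and *Tcrg-C1* (40.1% against 25.5%). γδ T cells carry CD3e, and the sort was for CD3e-negative cells. Types named as γδ T cells were nevertheless among the sorted cells, the largest being gdT_TypeI (11.7%). Before it made the subclusters, the study removed cells with non-ILC2 markers such as *Cd3*. Whether γδ T cells remained in these subclusters was not tested. Subcluster 7 further listed *Fcer1g* (32.0% against 5.20%) and *Tyrobp* (26.5% against 3.20%), signalling adaptors of myeloid and NK cells that were chosen after their values were seen.

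The label ILC2 was checked against markers. *Gata3* was found in 90.9% and *Il1rl1*, which encodes the IL-33 receptor ST2, in 89.2% of the cells kept as ILC2s. Other markers of the same list were lower, with *Klrg1* in 68.9% and *Il17rb* in 48.3%. No ILC2 subcluster listed any of 7 basophil markers, 5 macrophage markers, 5 NK cell and ILC1 markers or 5 B cell and plasma cell markers. That absence was in part fixed beforehand and is no test of the label. The study had removed cells with *Cd3*, *Cd11b*, *Fceri* or *Cd45r* before subclustering, and genes in under about 25% of cells could not be listed. Of 7 γδ T cell markers, however, 5 were listed, with 10 listings. Among them were *Cd3e* (32.0% against 4.70%) and *Trdc* (25.6% against 7%) in subcluster 5, which listed none of the 5 genes. *Cd3g* was listed for subclusters 5 (39.5% against 32.6% of all other ILC2s) and 6 (46.1% against 32.4%). Of 4 mast cell markers, *Kit* was listed, for subclusters 0, 3 and 9 with a higher share and for subcluster 5 with a lower one (11.2% against 26.6%), and *Kit* is also carried by ILC2s.

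The genes whose listings were most like those of each gene were taken by the overlap of their listing subclusters over the 10 subclusters (Jaccard index), then by how close the shares were. For *Il13* they were *Actg1*, a cytoskeletal actin (index 0.833), *Ctla4*, an inhibitory receptor (0.667), and *Impa2*, an inositol monophosphatase (0.667). *Ctla4* ran close to *Il13* in share, with 50.9%, 55.4%, 61.3% and 73.0% in subclusters 1, 2, 4 and 8, on average 1.78 percentage points from *Il13*. Unlike *Il13*, it was listed for subcluster 6 (55.6% against 33.0%) and not for subcluster 7. For *Il5* the same 2 subclusters listed *Basp1*, *Tox* and *Ptms* (index 1 each), of which *Tox*, a transcription factor of developing lymphocytes, had 56.5% in subcluster 7 and 51.9% in subcluster 9. For *Areg*, *Cdkn1a*, a cell cycle inhibitor, had the same 3 subclusters (index 1, with 26.2%, 28.0% and 28.1% in subclusters 3, 7 and 8). The next were *Fosl2*, an AP-1 subunit, and the immediate early gene *Nr4a1* (0.750 each). *Fosl2* was found in 62.7%, 65.5% and 60.7% of the cells of these 3 subclusters, on average 5.97 percentage points from *Areg*. *Il4* and *Csf2*, with 1 subcluster each, were not matched. These are likenesses of lists over few subclusters and not correlations between cells.

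Receptors through which ILC2s are activated were listed for the same subclusters only in part. Of 14 such genes 10 were listed, with 21 listings, in 2 of which the share was lower in the subcluster. *Il1rl1* was listed for subclusters 3 (97.0% against 87.8%) and 0, of which the first listed *Csf2* and *Areg* and the second none of the 5. *Il2ra*, the high affinity IL-2 receptor chain, was listed for the same pair (85.1% against 74.8% in subcluster 3), and the costimulator *Icos* for subcluster 3 (74.5% against 64.1%). *Il18r1*, the IL-18 receptor, was listed for subclusters 1 (34.8% against 18.7%), 7 (39.0% against 21.7%) and 8 (40.4% against 21.8%), which all listed *Il13*, and for subcluster 5 (26.3% against 21.7%), which listed none of the 5. *Il17rb*, the IL-25 receptor, was listed for subclusters 2 (66.7% against 44.2%), 9 (65.4% against 48.2%) and 3 (52.4% against 47.6%), and also for subcluster 6 (72.7% against 47.4%), which listed none of the 5. *Il2rb*, the shared β chain of the IL-2 and IL-15 receptors, stood out in subcluster 4 (75.9% against 35.2%).

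Of 27 transcription factors known to act on type 2 cytokine genes or in ILC2s, 17 were listed, with 33 listings, of which 9 had a lower share in the subcluster, beside 1102 of 3745 listings in the whole table. Subcluster 3, with *Csf2* and *Areg*, listed 8 of them (background 9.01% of the table's genes). These included the AP-1 subunits *Fosl2* (62.7% against 41.3%), *Fosb* (92.4% against 73.9%) and *Fos* (92.9% against 77.9%). Subcluster 5, with none of the 5 genes, also listed 8 (background 38.0%), all with lower shares. *Gata3* was listed there (94.8% against 90.2%) and for subcluster 0. Subcluster 7 listed 7 (background 10.3%), led by *Runx3* (84.5% against 55.2%), *Rel* of the NF-κB family (49.5% against 21.4%), *Fosl2* (65.5% against 44.2%) and *Batf* (73.5% against 55.1%). *Batf*, an AP-1 family member, was listed for subclusters 1 (71.2% against 51.3%) and 2 (73.1% against 51.3%) too. Its 3 subclusters all listed *Il13*, but so did 5 of the 10 subclusters, and the overlap was not tested. *Tcf7*, a factor of early ILC development, was listed for subclusters 1 (51.8% against 18.9%) and 7 (38.5% against 25.3%). Subcluster 8 listed 4 (background 9.62%), among them *Maf* (89.9% against 78.7%), and subclusters 4 (30.5%) and 9 (7.57%) listed none.

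Cytokine mRNAs are commonly destabilised by AU-rich element binding proteins and other RNA binding proteins. Of 7 such genes 6 were listed, with 8 listings. Subcluster 3 listed 4 of them (background 9.01% of the table's genes), among them *Zfp36l1* (98% against 81.2%) and *Zfp36*, which encodes tristetraprolin (78.9% against 67.2%). *Zfp36* was also listed for subclusters 1 (87.5% against 64.3%) and 8 (85.4% against 68.9%), both with *Il13*. The roquin genes *Rc3h1* (16.9% against 35.3%) and *Rc3h2* were listed for subcluster 5 with lower shares.

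Other cytokine genes, the receptors of the 5 products and the remaining EGF family were mostly absent from the ILC2 lists. Of 21 other cytokine genes 3 were listed. *Ccl5*, a T cell and eosinophil chemokine, was listed for subclusters 1 (51.2% against 41.8%), 4 (62.6% against 41.8%) and 8 (60.7% against 43.6%). All of these listed *Il13*, as did 5 of the 10 subclusters, and the overlap was not tested. *Cxcl2*, a neutrophil chemokine, was listed for subcluster 3 (29.1% against 12.5%), and *Tnfsf11*, which encodes RANKL, for subclusters 3 (36.3% against 17.4%) and 0 (37.0% against 13.9%). Of 9 receptor genes, *Il2rg*, the common γ chain used by the IL-4 receptor, was listed for subclusters 0 and 5 with lower shares (59.0% against 89.0% in subcluster 5). Of 10 genes of the EGF family and its shedding, *Adam17*, the protease that releases amphiregulin, was listed for subcluster 5, also with a lower share (18.4% against 37.8%).

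Of the neighbouring genes on the chromosome, *Irf1*, which lies 44.9 kb beyond *Il5*, was listed for subcluster 8 (44.9% against 29.3%), which listed *Il13* but neither *Il4* nor *Il5*. *Rad50* was listed for no ILC2 subcluster, and neither *Kif3a*, 8.21 kb from *Il4*, nor *Slc22a5* was in a table.

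Among all sorted cells, the type named ILC2 listed 4 of the 5 genes, all but *Il4* (background 8.10% of the table's genes), and Basophil listed *Il13* and *Il4* (16.4%). The type named gdT_TypeII listed *Csf2* and *Areg* (1.67%). ILC1_ILC3 listed *Csf2* (13.4%), and ILC2_2 (11.9%), Treg (8.93%) and gdT_TypeIII_CD163l1 (11.4%) listed *Areg*. The other 14 types listed none. Shares here cannot be set beside those among ILC2s. *Cd3e*, which the sort excluded, had a value above 0 in 83.5% of all sorted cells in this table and in 5.76% of ILC2s in the other, and *Csf2* was at 65.5% in the type ILC2 against 20.2% of ILC2s. The study scaled and log transformed its counts, but which Seurat assay each table was made from was not given in the sources used here. Whether a value above 0 in the cell type table means a detected transcript is therefore uncertain, and a share in the cell type table is read below only against the other cells of that table.

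**Figure D4:**
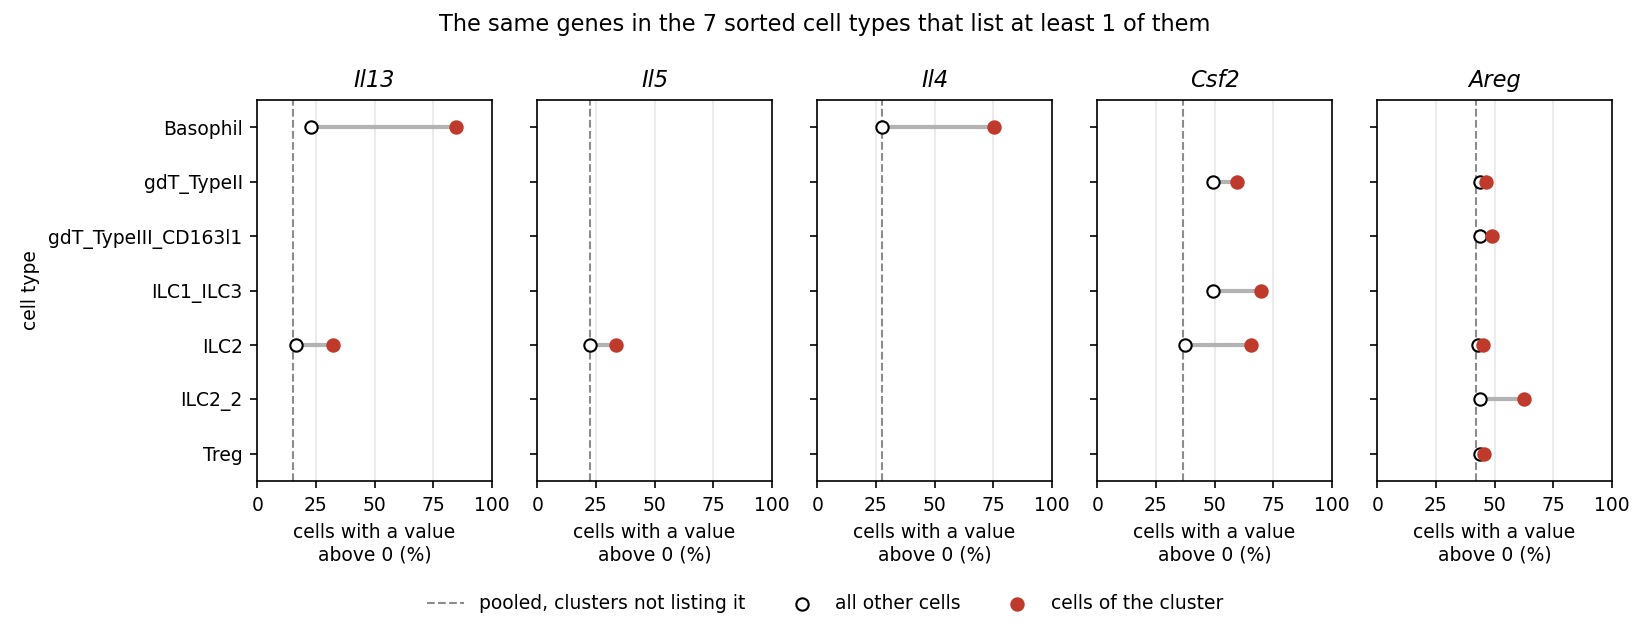
Share of cells with a value above 0 in the cell type table (x axis, %) for each gene in the 7 cell types that listed at least 1 of the 5 (y axis). Red points are cells of the type, open points all other sorted cells, and the dashed line the solved pooled share in the types that did not list the gene. The widest gaps are those of *Il13* and *Il4* in Basophil, and most gaps of *Areg* are narrow.

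Basophils stood out for *Il13* and *Il4*. *Il13* was at 84.8% of basophils against 22.7% of all other cells, and *Il4* at 75.2% against 27.5%. The difference was 62.1 percentage points for *Il13* and 47.7 for *Il4*, against a median of 33.3 over the 275 genes listed for the type. Basophil listed 7 of 7 basophil markers, among them the IgE receptor chain *Ms4a2* (98.2% against 4.40%) and the protease *Mcpt8* (98.2% against 12.8%). Basophils made up 1.07% of the sorted cells, and *Il4* was listed for this type alone.

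The type ILC2 made up 43.2% of the sorted cells and listed 7 of 10 ILC2 markers. *Csf2* had the widest gap there, at 65.5% against 37.4%, followed by *Il13* at 32.4% against 16.6% and *Il5* at 33.7% against 22.3%. *Areg* differed by only 2.10 percentage points (45.2% against 43.1%), the 135th of 136 genes listed. The median over that list was 21.3 percentage points, which *Csf2* exceeded (28.1) and *Il13* (15.8) and *Il5* (11.4) did not. *Il5* was listed for this type alone. *Rad50*, the gene between *Il13* and *Il5*, was listed for the type too (67.5% against 53.7%).

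*Csf2* was listed for 3 cell types and *Areg* for 5, where 40.4% of the table's genes were listed for at least 3 and 16.6% for at least 5. *Csf2* was at 69.9% against 49.4% in ILC1_ILC3 (0.592% of cells) and at 59.8% against 49.4% in gdT_TypeII (1.58%), and over the 18 types that did not list it its pooled share was 36.4%. The type gdT_TypeII listed none of 7 γδ T cell markers but *Il1rl1*, *Gata3* and *Il2ra*, so its name was not borne out by its list. That list is short, with 28 genes, and a missing listing does not show that these markers were unchanged. *Areg* was at 62.7% against 43.7% in ILC2_2 (1.78% of cells), a difference of 19.0 percentage points where the median of that list was -3.05. ILC2_2 listed 4 of 10 ILC2 markers, so the average of each was called higher there. By share, *Il1rl1* was higher (85.8% against 65.7%) and *Icos*, *Il17rb* and *Rora* were lower. Among these markers only *Il1rl1* thus bore out the name by share as well. The type also listed the immunoglobulin gene *Igkc* (33.8% against 21.1%). In gdT_TypeIII_CD163l1, gdT_TypeII and Treg the differences for *Areg* were 4.90, 2.30 and 1.5 percentage points. Its pooled share in the 16 types without a listing was 42.1%, against 44.0% of all sorted cells. Among the 5 types that listed *Areg*, ILC2_2 was the only one in which it differed by at least 10 percentage points. Its share in each of the other types was not given.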

How the data were processed

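Cells of 4 libraries, 1 per group by the labels, were sorted as Lin- CD127+Thy1+ST2+ and sequenced with a 3′ droplet kit. The authors aligned reads with Cell Ranger to mm10 (submitters' processing notes), removed doublets and dead cells by flow cytometry, excluded cells with few genes, scaled and log transformed the counts and clustered the cells in Seurat; no doublet caller is described. The deposited tables give, as a fraction to 3 decimals printed here as percent, the share of cells whose value was above 0, in a cluster and in all other cells. Their columns of average log2 fold change, p-value and adjusted p-value are the authors' own comparisons and were not used. The number of further columns with values per sample was 0.

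Cluster sizes were solved by least squares from the genes that 2 or more clusters listed, since the share in other cells plus the size times the difference equals the share in all cells, and the fit was tested on simulated data. Errors of solved shares cover rounding and fit, not variation between animals. Python 3.11.15, numpy 2.4.6, pandas 2.3.3 and matplotlib 3.10.9 were used. No p-value was computed, because cells are not replicates.

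The 5 genes and the gene lists were chosen with earlier results of these data known. Named were the 5, up to 4 genes of a list in a cluster that lists one of them (by difference in share), up to 3 genes most like each, neighbouring genes and up to 3 markers per cell type. Listings of *Gata3*, *Tcf7*, *Rc3h1*, *Rc3h2*, *Il2rg* and *Adam17* outside this rule were named after their values were seen. So were γδ T cell and ILC2 markers beyond 3 of each type. Alternatives were other size fits, a difference of at least 10 percentage points, leaving out clusters under 1% and a cosine measure of likeness. RefSeq promoters and positions (GRCm38.p6) matched all 5 genes by symbol.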

Additional observations from a re-analysis of the deposited data

How the results depend on the processing

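Of 73 values recomputed under other settings, 3 counts moved by more than 1.5 times and 0 values reversed. Without subclusters under 1% of the ILC2s (8 and 9), by construction *Il5* was left with 1 subcluster instead of 2, *Il13* with 4 instead of 5 and *Areg* with 2 instead of 3. With a difference of at least 10 percentage points, *Areg* was left with 1 cell type (ILC2_2) instead of 5, while its 3 ILC2 subclusters passed. With a cosine measure, 1 of the 3 genes most like *Areg* (*Cdkn1a*) was named again, and 2 of 3 each for *Il13* and *Il5*. The 45 solved shares under other fits of the sizes shifted by at most 0.112 percentage points. No paired analysis was possible because the tables held no value for single libraries, of which every group had 1.

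The tables gave neither depth nor numbers of cells, and no counting error was computed. Subclusters 7, 8 and 9 held the smallest shares of the ILC2s. Genes in under about 25% of the cells of every cluster could not be listed. Free RNA in droplets was not assessed. Shares in the cell type table may not be on the scale of those among ILC2s and cannot be set beside them.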

Other observations

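In the cell type table, 14 of 21 other cytokine genes were listed for at least 1 type. Basophil listed 6 of them (background 16.4% of the table's genes), the type ILC2 5 (8.10%) and ILC1_ILC3 4 (13.4%). Treg, which listed *Areg*, listed 0 (8.93%), and NK, which listed none of the 5 genes, listed 4 (11.7%). Basophil, which listed *Il13* and *Il4*, listed *Il6* (95.8% against 11.4% of all other cells), *Il1b* (86.6% against 28.6%), *Ccl3* (98.5% against 45.2%) and *Csf1* (99.4% against 53.6%). It also listed *Csf2rb* (97.3% against 30.1%), the β chain shared by the receptors of IL-5 and GM-CSF, and *Csf2rb2* (89.6% against 25.0%), a β chain of the IL-3 receptor. The type ILC2, which listed *Il13*, *Il5*, *Csf2* and *Areg*, listed *Tnfsf11* (89.3% against 49.5%), *Ccl1* (79.9% against 43.3%), *Il2* (80.2% against 49.6%) and *Lif* (52.9% against 34.4%). *Il2* and *Lif* were listed for no ILC2 subcluster. ILC1_ILC3, which listed *Csf2*, listed *Lif* as well (71.0% against 42.2%).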
